A study of Mus musculus with 5 samples.

Results

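The transcripts described here are those of the Hox genes, the homeobox genes that lie side by side in the clusters HoxA, HoxB, HoxC and HoxD. Members were taken as every row of the deposited table whose RefSeq transcript carries a symbol made of Hox, a cluster letter and a paralogue number. Of 39 such symbols in the RefSeq gene table, 38 had a row, with 1 row each, among 25631 rows in all. HoxA gave 11 members, HoxB 10, HoxC 9 and HoxD 8, and Hoxd8 had no row and was not analysed here.

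Hox genes encode DNA-binding transcription factors that give cells a position along the head-to-tail axis, the limbs and the urogenital tract. Within a cluster, genes of low paralogue number lie at the 3′ end, are switched on first and act toward the head, and genes of high number lie at the 5′ end, are switched on later and act toward the tail, the digits and the genital region. Retinoic acid switches on 3′ members through response elements in the clusters, and Polycomb and Trithorax group proteins keep clusters silent or active. In the male tract the posterior HoxA genes mark segments of the Wolffian duct, which becomes epididymis and vas deferens, and mice without Hoxa10 or Hoxa11 have undescended testes.

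RNA came from whole juvenile testes of male mice at postnatal day 9. Each of the 5 samples was hybridised to its own single-colour NimbleGen array. The 3 NGN-cre knockouts were Cre-positive and labelled Dmrt1 KO with NGN-cre, the 1 control was Cre-negative and labelled Control with NGN-cre, and the 1 DHH-cre knockout was Cre-positive and labelled Dmrt1 KO with DHH-cre. Dmrt1 encodes a DM-domain transcription factor made in germ cells and Sertoli cells. The labels give the drivers by these names alone. The promoter behind each Cre, the Dmrt1 allele, the strain background and whether RNA was pooled over animals are not given in the sources used here. The labels do not say whether the 3 NGN-cre samples are separate animals, so p-values below reflect the spread among these samples alone, and that spread may be technical. The array number in the title of the DHH-cre sample lies apart from those of the rest, so whatever that number marks and the genotype cannot be told apart.

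The median intensity of an array was 721 to 730. In log2 intensity the NGN-cre arrays correlated with each other at a Pearson r of 0.989 to 0.993 and with the control at 0.986 to 0.990, and the DHH-cre array correlated with the rest at 0.974 to 0.981. The control read 13.53 for Dmrt1 itself on the log2 scale, beside 12.38 ± 0.11 (SD, n = 3) with NGN-cre and 12.65 with DHH-cre, which is 45.0% and 54.2% of the control intensity. The NGN-cre difference of -1.15 did not pass over all rows (limma, Benjamini-Hochberg adjusted p = 0.281). The position of its probes within the gene is not known here.

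RefSeq windows of build GRCm38.p6, each reaching from 250 bases before a gene's start to 50 after it, were found for 22 Hox symbols in 24 windows, of which 21 symbols also had a row. The paralogue 4 windows are printed because Hoxb4 held the largest difference between the knockouts while Hoxd4 was among the steadiest bright rows. The window of Hoxb1, the most 3′ gene of its cluster and a gene of the hindbrain, follows as another row that was lowest on the DHH-cre array. Capitals mark matches on either strand to AGGTCA, the core of nuclear receptor sites, to TATAAA, the TATA box, or to TGATNNAT, a joint HOX and PBX site.
Hoxb4 (chr11:96318017-96318316, plus strand): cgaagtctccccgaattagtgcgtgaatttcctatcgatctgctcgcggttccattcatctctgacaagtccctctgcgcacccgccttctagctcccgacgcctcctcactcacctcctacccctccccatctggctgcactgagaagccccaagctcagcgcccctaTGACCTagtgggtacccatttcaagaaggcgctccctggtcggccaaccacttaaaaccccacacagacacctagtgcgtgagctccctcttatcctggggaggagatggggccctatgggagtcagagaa
Hoxc4 (chr15:103034145-103034444, plus strand): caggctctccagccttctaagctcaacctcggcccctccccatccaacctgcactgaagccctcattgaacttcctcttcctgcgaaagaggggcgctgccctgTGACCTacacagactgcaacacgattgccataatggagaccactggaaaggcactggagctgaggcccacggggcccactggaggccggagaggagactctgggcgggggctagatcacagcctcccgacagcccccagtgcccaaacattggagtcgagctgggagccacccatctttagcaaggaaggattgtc
Hoxd4 (chr2:74721728-74722027, plus strand): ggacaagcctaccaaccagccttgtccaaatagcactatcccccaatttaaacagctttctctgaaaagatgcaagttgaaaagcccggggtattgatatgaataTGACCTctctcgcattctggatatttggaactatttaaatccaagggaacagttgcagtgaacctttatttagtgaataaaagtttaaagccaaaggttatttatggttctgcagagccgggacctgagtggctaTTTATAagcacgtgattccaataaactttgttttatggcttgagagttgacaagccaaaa
Hoxb1 (chr11:96365508-96365807, plus strand): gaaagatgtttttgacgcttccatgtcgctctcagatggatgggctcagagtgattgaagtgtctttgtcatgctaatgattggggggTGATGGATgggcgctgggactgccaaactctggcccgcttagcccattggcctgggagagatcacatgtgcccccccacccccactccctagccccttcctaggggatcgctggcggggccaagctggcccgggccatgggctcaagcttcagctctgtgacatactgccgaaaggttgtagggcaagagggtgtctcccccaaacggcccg
Each of the 3 paralogue 4 windows held AGGTCA on the opposite strand, starting 81 bases before the start in Hoxb4, 146 in Hoxc4 and 145 in Hoxd4. Hoxd4 also held TATAAA on the opposite strand, 10 bases before the start. Hoxb1 held TGATNNAT 162 bases before the start. The printed matches do not overlap. CpG pairs numbered 14 in the Hoxb4 window, 9 in Hoxc4, 4 in Hoxd4 and 10 in Hoxb1.

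Over all Hox windows the median was 14.5 CpG pairs, with a range from 4 to 45, against a median of 7 over 32851 RefSeq windows of the same length. Of HoxB only Hoxb1, Hoxb4 and Hoxb8 had a window, and of HoxC only Hoxc4. The Hox windows are thus mostly those of HoxA and HoxD. AGGTCA was found in 29.2% of the 24 Hox windows and in 16.3% of all windows, TGATNNAT in 16.7% against 8.85%, and TATAAA in 16.7% against 13.6%. The letters ACAATGT, the core of the DMRT1 binding sequence, were in 0 of the 24 windows and in 2.96% of all windows. Such a match is a description of letters, not a site, and its lack says only that these letters are not in the window.

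The arrays read Hox transcripts over a wide span of brightness. The table holds no detection call, so the 95th percentile of 1064 olfactory receptor rows, a log2 intensity of 8.26, served as a reference for dim rows. Of the 38 Hox rows, 15 had a mean over the 5 arrays above it, against 62.3% of all rows. Probes differ in how brightly they bind, so the level of one gene is not ranked here against that of another.

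**Figure D1:**
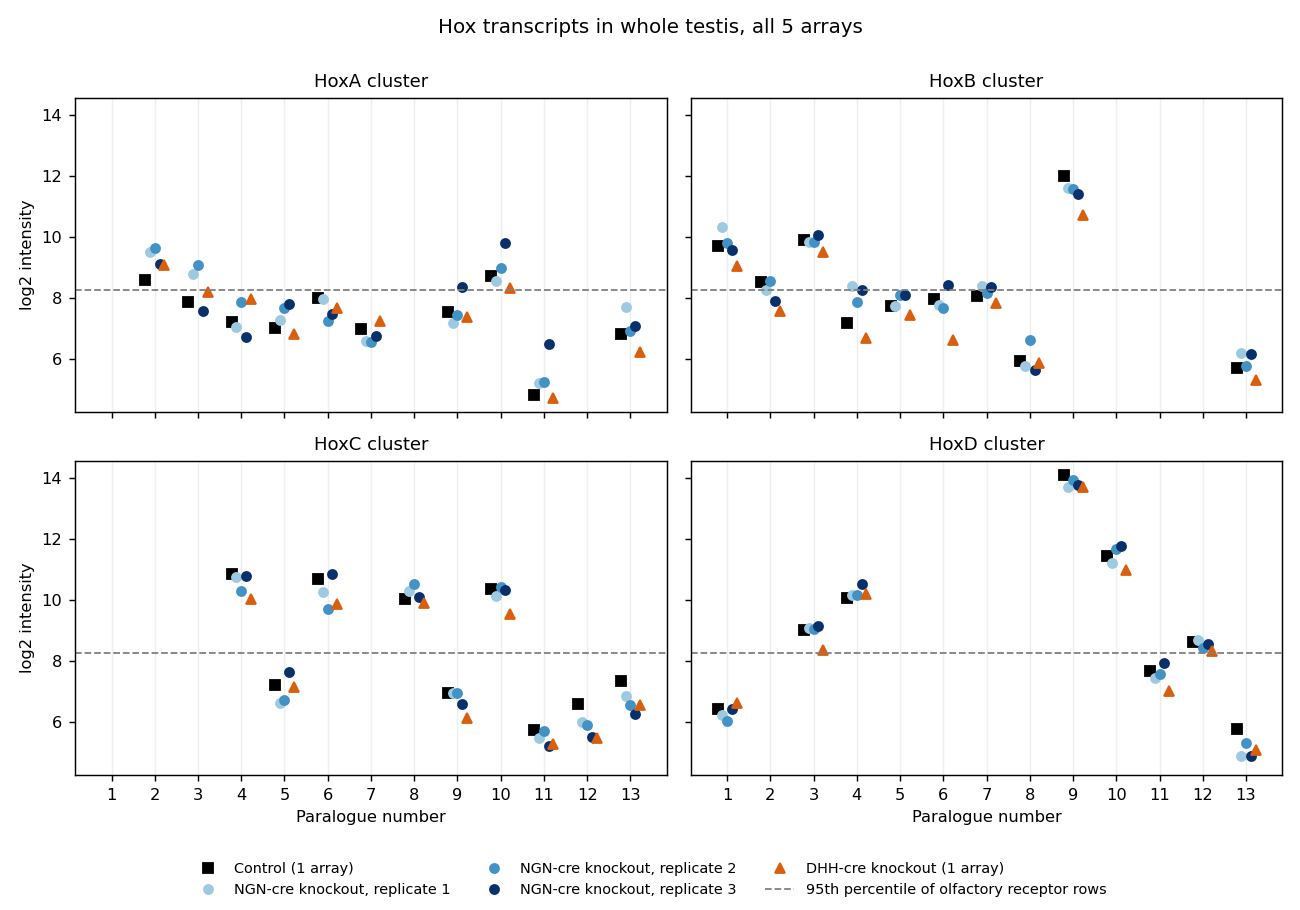
log2 intensity of 37 Hox rows on each of the 5 arrays, by paralogue number in 4 cluster panels; points are single arrays and the dashed line is the olfactory receptor reference of 8.26. All 4 rows of paralogue 13 lie below the line and all 3 rows of paralogue 10 have their mean above it.

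By paralogue number, all 3 rows of paralogue 3, Hoxa3, Hoxb3 and Hoxd3, and all 3 of paralogue 10, Hoxa10, Hoxc10 and Hoxd10, were above it. None of the 3 rows of paralogue 5, of the 2 of paralogue 7, of the 3 of paralogue 11 or of the 4 of paralogue 13 was. Hoxa13, Hoxb13, Hoxc13 and Hoxd13, genes of the hindgut, genital tubercle, prostate and hair, stayed below the reference on every array. These counts depend on the reference chosen. At the 90th percentile of the olfactory receptor rows, 7.45, 23 Hox rows were above it, Hoxb5, Hoxb7 and Hoxd11 among them, and at the 99th percentile 8 were. They describe probes against a fixed brightness and give no order of expression along the axis.

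By cluster, 3 of 11 HoxA rows, 3 of 10 HoxB rows, 4 of 9 HoxC rows and 5 of 8 HoxD rows were above the reference. Hoxd9, a gene of the lumbar region and limb, read 14.08 in the control, 13.70, 13.91 and 13.76 with NGN-cre and 13.68 with DHH-cre. Hoxd12, which acts in limb and digits, read 8.61 in the control, 8.68, 8.44 and 8.56 with NGN-cre and 8.32 with DHH-cre. Hoxd4, a gene of the neck vertebrae, read 10.06 in the control, 10.18, 10.16 and 10.51 with NGN-cre and 10.18 with DHH-cre. These were the 3 bright rows with the smallest range over the arrays, 0.40, 0.36 and 0.45. At the border of the reference, Hoxa3 had a mean of 8.30 and was just inside, while Hoxb7 at 8.17 and Hoxb2 at 8.16 were just outside.

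The first comparison asked how Hox transcripts differed between testes with the NGN-cre deletion and the control. No Hox row passed the threshold. Differences ran from -0.79 for Hoxc13 to 0.97 for Hoxb4, with a median of 0.01 over the 38 rows against -0.02 over all rows. In these whole testes, fewer cells of a type and less RNA per cell cannot be told apart.

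The clusters leaned to different sides of the control. HoxA rows had a median difference of 0.39 with 9 of 11 higher in the knockout, and HoxC rows a median of -0.23 with 8 of 9 lower, against 52.6% of all rows lower. HoxB had a median of 0.13 with 7 of 10 higher and HoxD a median of -0.03 with 5 of 8 lower. The difference between clusters was not tested. The cluster medians of single arrays against the control were -0.02, 0.27 and 0.25 for HoxA and -0.24, -0.49 and -0.06 for HoxC in replicates 1, 2 and 3.

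On the higher side, Hoxb4, known for expanding blood stem cells when overexpressed, read 7.20 in the control and 8.40, 7.86 and 8.26 in the knockouts. Hoxa2, a gene of the hindbrain and second pharyngeal arch, read 8.59 in the control and 9.52, 9.62 and 9.13 in the knockouts. Each of these controls lay below all 3 knockout arrays. The mean of Hoxb4 was below the olfactory receptor reference, so the size of its difference is uncertain. Hoxb4 was 0.97 higher (SE 0.27; limma, Benjamini-Hochberg adjusted p = 0.452) and Hoxa2 0.83 higher (SE 0.27; limma, Benjamini-Hochberg adjusted p = 0.516).

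On the lower side stood 3 rows at the posterior end. Hoxc13, a gene of hair and nail, read 7.35 in the control and 6.87, 6.56 and 6.26 in the knockouts. Hoxc12 read 6.59 in the control and 6.02, 5.92 and 5.51 in the knockouts. Hoxd13, a gene of digits and genital tubercle, read 5.78 in the control and 4.90, 5.32 and 4.91 in the knockouts. In each the control lay above all 3 knockout arrays, at differences of -0.79, -0.77 and -0.74. Over all rows none passed (limma, Benjamini-Hochberg adjusted p = 0.569, 0.561 and 0.560). All 3 rows were below the olfactory receptor reference, so the sizes of their differences are uncertain.

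Over all Hox rows the control was outside the range of the NGN-cre arrays in 21, below them in 11 and above them in 10, and such rows made up 54.5% of all rows, 25.7% below and 28.8% above. By limma, 0 Hox rows passed a Benjamini-Hochberg adjusted p under 0.05, where 0.00% of all rows did, and 5 had an unadjusted p under 0.05, where 7.86% of all rows did. By a rule of size alone, a difference of at least 2-fold that exceeds the range of the NGN-cre arrays, 0 Hox rows were counted against 1.88% of all rows. The share of all rows that were lower by this rule was 0.546%. Without NGN-cre replicate 2 the size rule counted Hoxb4 at 1.13, and without replicate 3 it counted Hoxa3 at 1.06, while no alternative brought a Hox row past the threshold in this comparison.

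Adjacent genes at the posterior end of HoxA were high on NGN-cre replicate 3. Hoxa11, which patterns the vas deferens and uterus, read 4.84 in the control, 5.22, 5.25 and 6.51 in NGN-cre replicates 1, 2 and 3, and 4.74 in the DHH-cre knockout. Hoxa10, which acts in uterus, epididymis and testis descent, read 8.73 in the control, 8.56, 9.0 and 9.81 in the same replicates, and 8.33 in the DHH-cre knockout. Hoxa9, singled out after its values were seen because it lies beside them, read 7.55 in the control, 7.18, 7.44 and 8.38 in the replicates, and 7.40 in the DHH-cre knockout.

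In all 3 genes replicate 3 was the highest of the 5 arrays, at 1.67, 1.08 and 0.83 above the control. Hoxa13, the last gene of the cluster and one of the genital tubercle and urogenital sinus, read 6.83 in the control, 7.72, 6.94 and 7.09 in replicates 1, 2 and 3, and 6.25 in the DHH-cre knockout, so there replicate 1 was highest. The NGN-cre mean of Hoxa11 was 0.82 above the control (SE 0.51; limma, Benjamini-Hochberg adjusted p = 0.774), and without replicate 3 this difference was 0.40, and with 50 added to every intensity it was 0.39. Hoxa11 was below the olfactory receptor reference on all 5 arrays and Hoxa9 on 4, so the sizes of their differences are uncertain. Replicate 3 was the highest array in 13 of 38 Hox rows, against 17.0% of all rows. It lay at least 2-fold from the control in 5 Hox rows, where 2.58% of all rows did, beside 1 Hox row on replicate 1, with 3.20% of all rows, and 2 on replicate 2, with 5.04% of all rows. The 5 rows on replicate 3 went both ways, with Hoxa11, Hoxa10 and Hoxb4 higher and Hoxc13 and Hoxc12 lower, at -1.09 and -1.07. All but Hoxa10 had means below the reference.

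Markers of duct epithelium went both ways on replicate 3, the highest array in 17.0% of all rows. It was highest in 6 of 15 measured duct markers, among them the basal keratin gene Krt5 at 7.41 against 5.92 in the control, the epithelial keratin gene Krt19 at 10.59 against 9.44, the kidney and duct cadherin gene Cdh16 at 10.25 against 9.42, and the Wolffian duct factor gene Pax2 at 8.98 against 8.18. Other members were lower on replicate 3 than in the control, with differences of -1.12 for Lhx1, -0.53 for Gata3, -0.50 for Cldn3 and -0.24 for Pax8. Gata3 and Cldn3 were lowest there of the 5 arrays. Of the 15 markers 11 had a mean above the reference, and Gata3, Krt5, Krt14 and Lhx1 did not. The summed duct marker intensity was 30069 in the control, 34504 to 36842 with NGN-cre and 27156 with DHH-cre. The sum was highest on replicate 1 (36842) and came to 36114 on replicate 3. Epcam, the brightest member, weighs most in the sum and was also highest on replicate 1. Epcam read 14.33 in the control, 14.65, 14.38 and 14.49 with NGN-cre and 14.31 with DHH-cre. The part of duct tissue in the HoxA values was not tested.

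In the second comparison the DHH-cre knockout was set against the same control, 1 array against 1, with no replicate check and no test. Most Hox rows were lower in the DHH-cre knockout, 31 of 38, where 51.7% of all rows were lower. The median difference was -0.40 over the Hox rows and -0.02 over all rows. HoxB was lower in 10 of 10 rows and HoxC in 9 of 9, HoxD in 6 of 8 and HoxA in 6 of 11, with medians of -0.47, -0.82, -0.43 and -0.09. These counts by cluster were the same after repeating quantile normalization and after adding 50 to every intensity.

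**Figure D2:**
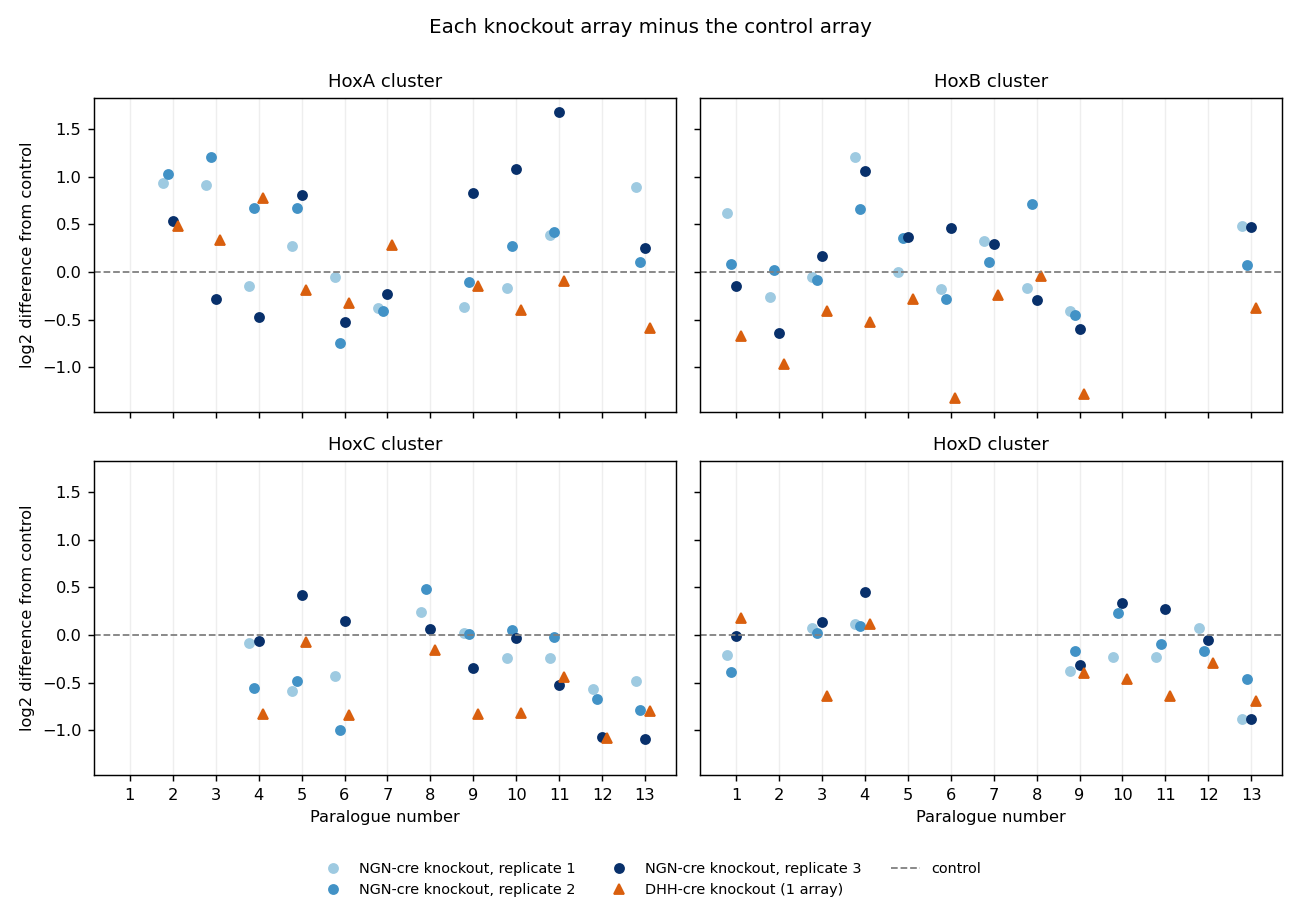
log2 difference of each knockout array from the control array for 37 Hox rows, by paralogue number in 4 cluster panels; points are single arrays and the dashed line is the control. DHH-cre triangles lie below the line for all HoxB and HoxC rows and above it for Hoxa2, Hoxa3 and Hoxa4, and NGN-cre replicate 3 stands 0.83, 1.08 and 1.67 above it at Hoxa9, Hoxa10 and Hoxa11.

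By position, all 16 rows of paralogues 9 to 13 were lower in the DHH-cre knockout, with a median of -0.52, as were 9 of 10 rows of paralogues 5 to 8, with a median of -0.21. Of the 12 rows of paralogues 1 to 4, 6 were lower, with a median of -0.15. Clusters differed here, since HoxB was lower in 4 of 4 of these rows, with a median of -0.60, and HoxC in its 1 row, at -0.83. The difference between positions was not tested. Toward the 3′ end of HoxA, Hoxa2, Hoxa3 and Hoxa4 were higher, by 0.48, 0.33 and 0.78. Hoxa7 was also higher at 0.28, as were Hoxd1 at 0.18 and Hoxd4 at 0.12. Hoxa4, Hoxa7 and Hoxd1 had means below the olfactory receptor reference, so the sizes of their differences are uncertain. Against the same control array the NGN-cre means of Hoxa2, Hoxa3 and Hoxa4 stood at 0.83, 0.61 and 0.02. Between the knockouts Hoxa2 and Hoxa3 were lower with DHH-cre, at -0.35 and -0.28, and Hoxa4 was higher, at 0.76. In that comparison 9 of the 12 rows of paralogues 1 to 4 were lower, with a median of -0.38.

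By the size rule 3 Hox rows were counted, all lower, against 10.4% of all rows in either direction and 4.81% lower, so Hox rows were counted about as often as rows in general. Hoxb6 (NM_008269), a gene of the thoracic region and of lateral mesoderm, read 7.96 in the control, 7.77, 7.67 and 8.42 with NGN-cre and 6.64 with DHH-cre. Hoxb9 (NM_008270), which patterns ribs and sternum, read 12.01 in the control, 11.60, 11.56 and 11.41 with NGN-cre and 10.73 with DHH-cre. Hoxc12 read 6.59 in the control, 6.02, 5.92 and 5.51 with NGN-cre and 5.50 with DHH-cre. In all 3 genes the DHH-cre array was the lowest of the 5, at 2.50-fold, 2.43-fold and 2.12-fold below the control (log2 -1.32, -1.28 and -1.08). For Hoxc12 it lay only just below NGN-cre replicate 3, and the control lay above every knockout array. Between the knockouts Hoxc12 differed by -0.32. Of these only Hoxb9 was above the olfactory receptor reference, so the sizes for Hoxb6 and Hoxc12 are uncertain. With 50 added to every intensity Hoxb9 was still counted at -1.25, while Hoxb6 at -1.0 and Hoxc12 at -0.62 were not.

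Further rows were lower by less than 2-fold. Hoxb2, a hindbrain gene, read 8.54 in the control, 8.27, 8.55 and 7.89 with NGN-cre and 7.57 with DHH-cre. Hoxc6, a gene of the forelimb level and chest, read 10.69 in the control, 10.26, 9.70 and 10.84 with NGN-cre and 9.86 with DHH-cre. Hoxc4, a gene of the neck level, read 10.85 in the control, 10.77, 10.29 and 10.79 with NGN-cre and 10.02 with DHH-cre. Hoxb2 and Hoxc4 had their lowest value on the DHH-cre array, at -0.97 and -0.83 from the control, while Hoxc6 at -0.84 was lower still in NGN-cre replicate 2. Hoxc5, which lies between Hoxc4 and Hoxc6, stood at -0.07.

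The DHH-cre array was the lowest of all 5 in 23 of 38 Hox rows and the highest in 4, where it was the lowest in 29.1% and the highest in 29.0% of all rows. In HoxB it was the lowest in 9 of 10 rows, all but Hoxb8, which read 5.93 in the control, 5.77, 6.64 and 5.64 with NGN-cre and 5.89 with DHH-cre. It was lowest in 4 of 11 HoxA, 5 of 9 HoxC and 5 of 8 HoxD rows. Among the 15 rows above the olfactory receptor reference it was lowest in 11, and 12 of them were lower than the control.

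The third comparison set the DHH-cre array against the 3 NGN-cre knockouts, without the control. It shares the DHH-cre array with the second comparison and the NGN-cre arrays with the first. Hox rows were lower in the DHH-cre knockout in 31 of 38 cases, against 49.4% of all rows, with a median of -0.42 against 0.01 over all rows. HoxB was lower in 10 of 10 rows with a median of -0.70, HoxC in 8 of 9 with -0.41, HoxD in 6 of 8 with -0.17 and HoxA in 7 of 11 with -0.28. None of the 38 passed the threshold.

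Hoxb4 (NM_010459) was nearest to it. Beside the control and NGN-cre values given above, it read 6.68 in the DHH-cre knockout, below each of the other 4 arrays. The difference was -1.50 (SE 0.27; limma, Benjamini-Hochberg adjusted p = 0.0644). It passed when the variance was let follow intensity (limma, adjusted p = 0.0458), without NGN-cre replicate 2 (adjusted p = 0.0495) and without NGN-cre replicate 3 (adjusted p = 0.0333), and over 7 alternatives the adjusted p ran from 0.0333 to 0.164. Over the whole table too, more rows passed with the trend and without replicate 3 than in the reported fit, and fewer without replicate 2. The mean of Hoxb4 lay below the olfactory receptor reference, so the size of the difference is uncertain.

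Hoxb6, with the values given above, was at -1.32 (SE 0.33; limma, Benjamini-Hochberg adjusted p = 0.113) and passed without NGN-cre replicate 3 (limma, adjusted p = 0.0428), over a range from 0.0428 to 0.193. Hoxa13 differed by -1.0, Hoxa11 by -0.92 and Hoxa10 by -0.80 (limma, Benjamini-Hochberg adjusted p = 0.185, 0.397 and 0.408), which made posterior HoxA genes 3 of the 6 largest differences. Hoxb1 read 9.71 in the control, 10.32, 9.80 and 9.57 with NGN-cre and 9.04 with DHH-cre, a difference of -0.86 (SE 0.32; limma, Benjamini-Hochberg adjusted p = 0.223). In each of these 5 genes the DHH-cre array was the lowest of all arrays. Without NGN-cre replicate 3 the differences of Hoxa11 and Hoxa10 were -0.49 and -0.45, and with 50 added that of Hoxa11 was -0.42. Hoxb6, Hoxa13 and Hoxa11 had means below the reference. Where Hoxb6 passed, without replicate 3, more rows of the whole table passed as well.

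**Figure D3:**
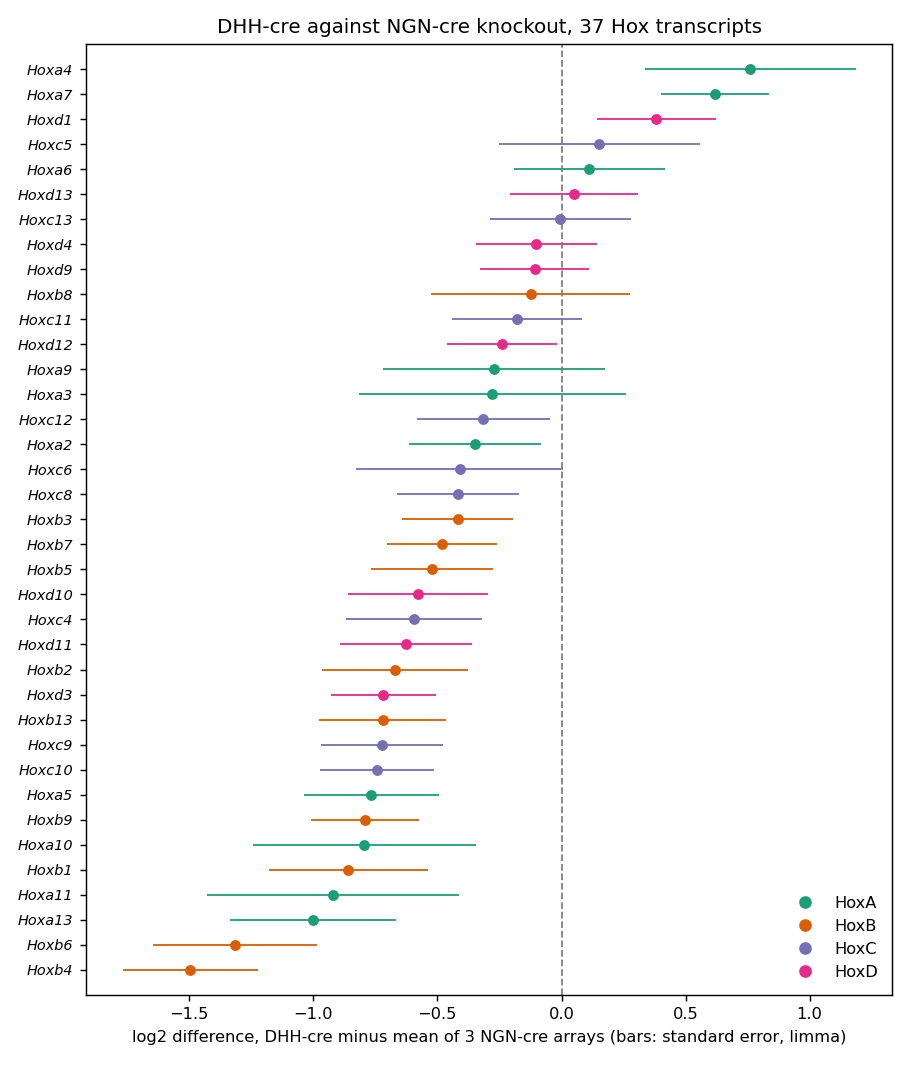
log2 difference of the DHH-cre array from the mean of the 3 NGN-cre arrays for 37 Hox rows, sorted, coloured by cluster; bars are limma standard errors. The 10 HoxB rows all lie below 0, from -1.50 for Hoxb4 to -0.12 for Hoxb8, and Hoxa4 at 0.76 is highest.

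On the higher side were 7 rows, among them Hoxa4 at 0.76, Hoxa7 at 0.62 and Hoxd1 at 0.38, which stood above all 3 NGN-cre arrays. All 7 had means below the olfactory receptor reference, so the sizes of their differences are uncertain. The 15 Hox rows above the reference were all lower with DHH-cre. The DHH-cre array was below all 3 NGN-cre arrays in 24 Hox rows and above them in 4, against 32.5% and 33.2% of all rows. By limma 0 Hox rows passed a Benjamini-Hochberg adjusted p under 0.05, where 1.00% of all rows did and 0.730% were lower, and 11 had an unadjusted p under 0.05, 10 of them lower, where 18.3% of all rows did and 9.55% were lower. The size rule counted Hoxb4, Hoxb6 and Hoxa13, which is 3 of 38, all lower, against 6.08% of all rows and 3.30% lower. All 3 had means below the reference, and the count was 2 after repeated quantile normalization, 1 with 50 added and 0 with dim rows left out. The spread in this test comes from the NGN-cre arrays alone, and the single DHH-cre array is taken to vary as they do.

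PBX and MEIS proteins bind DNA together with Hox proteins, and 9 of 9 listed genes were measured. Pbx3 read 10.33 in the control, 11.80, 10.85 and 11.56 with NGN-cre and 12.89 with DHH-cre, so that each knockout array was above the control. Its differences were 2.57 for the DHH-cre knockout against the control, 1.08 for the NGN-cre mean against it and 1.49 between the knockouts, and neither tested difference passed (limma, Benjamini-Hochberg adjusted p = 0.560 and 0.112). Meis2 read 11.80 in the control, 12.51, 12.32 and 12.18 with NGN-cre and 11.29 with DHH-cre. The list's median difference from the control was 0.19 in the NGN-cre and 0.08 in the DHH-cre knockout.

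Cdx genes encode homeodomain activators of Hox clusters in the embryo, and Evx genes lie at the 5′ end of HoxA and HoxD. None of the 5 measured had a mean above the reference. Cdx2 read 7.06 in the control, 7.42, 7.40 and 7.27 with NGN-cre and 8.38 with DHH-cre, 1.32 above the control, and it was the 1 member counted by the size rule. Polycomb genes, which keep Hox clusters silent, were all above the reference, 15 of 15, and 0 were counted by the size rule, with medians of 0.03 in the NGN-cre and 0.01 in the DHH-cre knockout. Phc1, a Polycomb repressive complex gene, stood 0.64 above the control in the DHH-cre knockout, and Cbx2, another, at -0.61. Of 10 measured Trithorax and MLL complex genes 1 was counted in the DHH-cre knockout, the H3K27 demethylase gene Kdm6a at 1.17, and the medians were -0.11 in the NGN-cre and -0.00 in the DHH-cre knockout. Against the control, the size rule took in 10.4% of all rows for the DHH-cre array and 1.88% for the NGN-cre arrays. The 1 of 10 Trithorax and MLL complex genes is thus about the share among rows in general. No member of these lists passed the threshold in either tested comparison, where 0.00% and 1.00% of all rows did.

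Genes next to the clusters were taken as the 3 nearest named genes with a row on each side of each cluster. These 24 genes, among them Skap2, Hibadh, Smug1 and Mtx2, had a median difference of -0.11 between the DHH-cre knockout and the control, with 13 of 24 lower, beside -0.40 and 31 of 38 for the Hox rows. Around HoxB, where 10 of 10 Hox rows were lower, 2 of 6 flanking genes were lower, with a median of 0.31. Around HoxC 4 of 6 were lower, with a median of -0.13. The size rule counted 0 of the 24 in either comparison with the control. Of all rows it counted 1.88% for the NGN-cre and 10.4% for the DHH-cre knockout. None of the 24 passed the threshold between the knockouts, where 1.00% of all rows did. Whether clusters and flanks differ was not tested.

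Markers of the cells in a testis and of tissue that can come with it also differed on the DHH-cre array. Against the control 51.7% of all rows were lower there. Sertoli cell genes had a median of -0.81 from the control with 12 of 14 measured genes lower. Their summed intensity was 185699 in the control, 139418 to 154327 with NGN-cre and 110859 with DHH-cre. The deleted gene Dmrt1 is itself a member of this list, at -0.88 from the control in the DHH-cre knockout, so it adds to that count, median and sum. Between the knockouts Cst9 at -3.06 and Fshr, the receptor gene for follicle-stimulating hormone, at -1.55 fell with DHH-cre (limma, Benjamini-Hochberg adjusted p = 0.0153 and 0.0369), and Tsx was -1.38 from the control. Endothelial genes had a median of -0.21 with 6 of 8 lower, at summed intensities of 25974, 29249 to 32527 and 22139, with Emcn at 0.69 and Esam at 0.53. Peritubular and stromal genes had a median of -0.13 with 7 of 12 lower, at 235106, 244158 to 250670 and 216177, with Cnn1 at 0.89 and Tagln at 0.74. Erythroid genes had a median of -1.31 with 5 of 5 lower, at 29074, 22230 to 29137 and 11631, though 3 of the 5 were not above the reference. Among them Slc4a1, the red cell anion exchanger gene, was -1.60 between the knockouts (limma, Benjamini-Hochberg adjusted p = 0.0442), and the globin gene Hba-a1 was -1.34 from the control. Duct markers had a median of -0.15 with 12 of 15 lower, with Pax8 at -1.32 and Lhx1 at -1.16. Between the knockouts the duct median was -0.73 with 13 of 15 lower, beside -0.42 and 31 of 38 for the Hox rows and 49.4% of all rows lower. The DHH-cre array was the lowest of the 5 in 11 of the 15 duct markers, beside 23 of 38 Hox rows and 29.1% of all rows.

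Germ cell, Leydig cell and macrophage genes had medians above 0. Germ cell genes had a median of 0.32 with 7 of 12 higher, at summed intensities of 217316 in the control, 234903 to 260022 with NGN-cre and 258268 with DHH-cre, Leydig cell genes 0.39 with 6 of 8 higher, at 82748, 69555 to 90589 and 102748, and macrophage genes 0.57 with 6 of 7 higher, at 6070, 7862 to 10575 and 8676. Germ cell genes went both ways from the control in the DHH-cre knockout. Tex101 stood at 1.66, Rnf17 at 1.36, Sycp3 at 1.17 and Stra8 at 1.01, while Gfra1 stood at -1.43 and Zbtb16 at -1.03. Among macrophage genes Adgre1 was 1.20 from the control in the NGN-cre knockout. Hsd3b6, a steroid dehydrogenase gene, rose by 1.55 between the knockouts, higher with DHH-cre (limma, Benjamini-Hochberg adjusted p = 0.0452). Epididymis genes had a median of -0.43, and of 12 only Wfdc10, Spink8, Defb42 and Crisp1 had a mean above the reference. Crisp1, a secreted protein of the epididymis, read 8.28 in the control, 10.09, 10.33 and 10.26 with NGN-cre and 4.25 with DHH-cre. Between the knockouts Crisp1 at -5.98, Spink8 at -4.04 and Defb42 at -2.66 were lower with DHH-cre and passed (limma, Benjamini-Hochberg adjusted p = 0.00104, 0.0156 and 0.0213). The summed intensity of the list was 17859 in the control, 15221 to 16492 with NGN-cre and 12135 with DHH-cre. This sum follows Wfdc10, at 13.97 in the control, 13.68, 13.46 and 13.36 with NGN-cre and 13.48 with DHH-cre, and not Spink8 and Crisp1, which stood at 2.85 and 1.94 from the control with NGN-cre. The part of any of these cell types in the Hox values was not tested.

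**Figure D4:**
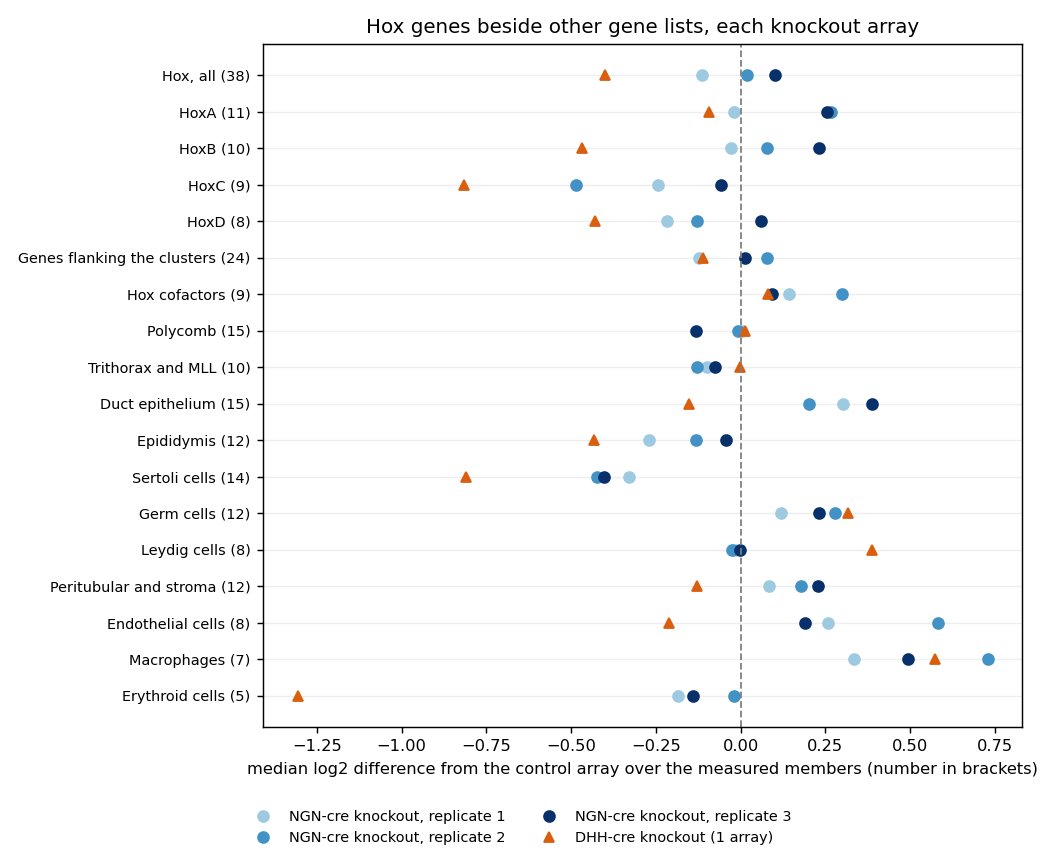
Median log2 difference from the control array over the measured members of the Hox clusters and of other gene lists; points are single knockout arrays, with the number of members in brackets. For all Hox rows the DHH-cre median lies at -0.40 and the NGN-cre medians at -0.11, 0.02 and 0.10, while Polycomb medians lie between -0.13 and 0.01.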

How the data were processed

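Whole-testis RNA was measured on 5 single-colour NimbleGen MM8 60mer arrays, per the labels' protocols. The deposited values are intensity on a linear scale, 1 per transcript on each array. Per the submitters' processing notes they were made with RMA, whose version is not given. RMA as usually run equalises the arrays' distributions, so a shift of total RNA cannot be seen. Probe positions, probe numbers and other settings are not given in the sources used here.

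Values were taken as log2 with no further normalization, offset or filter. Rows were named through unversioned RefSeq accessions of assembly GRCm38.p6, and 17780 of 25631 matched 1 symbol, none several. Where a listed gene had several rows, the one with the highest mean was used. The test was limma 3.58.1 under R 4.3.3, two-sided, through lmFit and eBayes without a trend, and the threshold a Benjamini-Hochberg adjusted p under 0.05 over all rows, with 1 mean per group over 5 arrays and 2 residual degrees of freedom from the NGN-cre arrays. The number of arrays limits the precision: with 3 arrays against 1, the smallest permutation p is 0.25. No test was made of 1 DHH-cre array against 1 control. The fit was checked on simulated data.

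The members and the lists were chosen with earlier results of these data known. By a rule, values on every array are given for Hox rows past the threshold or the size rule, then for the largest differences up to 6 per comparison, and for the 3 steadiest bright rows. For other lists up to 3 members past the threshold or size rule are named, or the 2 largest differences. More are given of the duct, epididymis, Sertoli and germ cell lists. Hoxa9, Hoxa3, Hoxb8, Hoxd3, the duct markers high on replicate 3, those further members and the flanking genes named were chosen after their values were seen. Alternatives were an intensity trend, leaving out each NGN-cre replicate, repeated quantile normalization, an offset of 50, leaving out dim rows, 1 row per symbol, and the 90th or 99th percentile as reference. Single values of some genes are not reported here.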

Additional observations from a re-analysis of the deposited data

Results flagged for a closer look

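In 11 of 38 Hox rows (28.9%) the 3 NGN-cre knockout arrays all lay on one side of the control and the DHH-cre array on the other, against 11.7% of all rows. Both differences from the control use the same control array. The difference between the knockouts was tested in limma for each, and none passed a Benjamini-Hochberg adjusted p under 0.05. Lower in the DHH-cre knockout than in the NGN-cre knockouts were Hoxb4 (-1.50), Hoxa13 (-1.0), Hoxa11 (-0.92), Hoxa5 (-0.77), Hoxb13 (-0.72), Hoxd3 (-0.72), Hoxb5 (-0.52), Hoxb7 (-0.48) and Hoxc8 (-0.42). Higher were Hoxa7 (0.62) and Hoxd1 (0.38). All but Hoxc8 and Hoxd3 had means below the olfactory receptor reference, so the sizes of those differences are uncertain. Hoxd3 read 9.02 in the control, 9.10, 9.04 and 9.16 with NGN-cre and 8.38 with DHH-cre, so its NGN-cre arrays stood only just above the control. Other margins were small as well, with Hoxb5 on replicate 1 at 0.002 from the control and Hoxd1 on replicate 3 at -0.015.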

How the results depend on the processing

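The Hox rows stayed lower on the DHH-cre array under the scaling alternatives, with 31 of 38 below the control after repeated quantile normalization and with 50 added, and medians from -0.41 to -0.29. Against the NGN-cre knockouts 30 to 32 of 38 were lower, counted under the alternatives that kept all 38 rows. No Hox row passed the threshold between NGN-cre knockout and control under any alternative run. Between the knockouts the count was 0 in the reported fit, 1 with an intensity trend, and 0 to 2 when an NGN-cre replicate was left out, with 1 without replicate 2 and 2 without replicate 3. Over all rows it was 257 in the reported fit, 729 with the trend, 38 without replicate 1, 1321 without replicate 3 and 97 with 50 added. With the control it was 0 for the NGN-cre knockout, then 66 with the trend and 238 without replicate 3. The size rule counted 3 Hox rows between DHH-cre array and control, and 1 with 50 added or with dim rows left out, where only 15 Hox rows remained. For the NGN-cre knockout it counted 0, and 0 to 1 without a replicate. Hox rows above the reference numbered 15, but 23 at the 90th and 8 at the 99th percentile. No paired analysis was possible because the labels give no shared replicate numbers.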
